A study of Mus musculus with 11 samples.

Results

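DNA repair genes were followed in cultured mouse hippocampal neurons after a short exposure to low oxygen. The group held 37 genes, chosen by symbol for 7 kinds of repair role, and each symbol matched 1 Ensembl gene ID among the 48709 IDs of the count tables. RNA was sequenced from primary hippocampal neurons kept for 4 h at 1% oxygen (hypoxia, 5 libraries) and, per the labels, from cells of the same isolation left at 20% oxygen (control, 6 libraries). All cells had been grown for 10 days at 20% oxygen beforehand, and no genotype, strain or agent other than oxygen distinguishes the groups in the labels. The labels do not say whether the libraries of a group came from separate cultures, so p-values measure the spread between libraries, which may be technical.

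Cells mend DNA by several routes that divide the work by the kind of damage. Base excision repair removes small damaged bases such as oxidised guanine or uracil, nucleotide excision repair cuts out bulky or helix-distorting lesions, and mismatch repair corrects errors left by replication. Breaks through both strands are sensed by the Mre11-Rad50-Nbs1 complex and the kinase Atm, and are closed either by end joining, which works in any phase of the cell cycle, or by homologous recombination, which copies an intact sister chromatid and so belongs to dividing cells. Neurons no longer divide, and are known to rely on end joining and excision repair.

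Of the 37 genes, 3 rose and 2 fell after 4 h at 1% oxygen, each by a modest amount. The genes that rose were Rad52, Nbn and Atm, which act on double-strand breaks, and the genes that fell were Ercc2 and Ung, of nucleotide and base excision repair. That division did not hold in a wider list of other repair genes, given below. Its recombination genes had 0 called higher and 2 lower of 27 tested, and its damage signalling genes 0 higher and 3 lower of 17. Its nucleotide excision genes had 1 higher and 1 lower of 19, and its base excision genes 0 higher and 2 lower of 17. Over all genes tested, 10.1% were called higher and 12.8% lower. So that motifs for oxygen-responsive and cell-cycle factors can be read beside each change, the promoter windows of Rad52, Atm, Ercc2 and Ung are printed. Each runs from 250 bases before to 50 bases after the annotated start in RefSeq's GRCm38.p6, 5′ to 3′ on the gene's own strand. The windows are Rad52 at chr6:119902448-119902747 on the plus strand, Atm at chr9:53536622-53536921 on the minus strand, Ercc2 at chr7:19381767-19382066 on the plus strand and Ung at chr5:114130185-114130484 on the plus strand. Nbn was among 7 genes not matched to a window, against 30 that were. Capitals mark letters that match a motif searched on both strands.
Rad52: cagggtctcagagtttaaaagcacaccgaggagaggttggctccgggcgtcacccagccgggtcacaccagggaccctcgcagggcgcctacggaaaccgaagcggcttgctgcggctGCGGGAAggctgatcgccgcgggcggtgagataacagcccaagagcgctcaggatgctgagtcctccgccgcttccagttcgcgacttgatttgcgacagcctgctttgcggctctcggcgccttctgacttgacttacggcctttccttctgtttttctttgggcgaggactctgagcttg
Atm: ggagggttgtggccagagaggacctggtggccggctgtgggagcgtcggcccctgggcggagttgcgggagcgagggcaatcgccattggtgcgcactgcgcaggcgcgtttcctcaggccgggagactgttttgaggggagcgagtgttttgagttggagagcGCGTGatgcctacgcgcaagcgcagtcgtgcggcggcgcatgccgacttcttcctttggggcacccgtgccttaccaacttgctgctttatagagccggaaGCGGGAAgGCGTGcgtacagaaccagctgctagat
Ercc2: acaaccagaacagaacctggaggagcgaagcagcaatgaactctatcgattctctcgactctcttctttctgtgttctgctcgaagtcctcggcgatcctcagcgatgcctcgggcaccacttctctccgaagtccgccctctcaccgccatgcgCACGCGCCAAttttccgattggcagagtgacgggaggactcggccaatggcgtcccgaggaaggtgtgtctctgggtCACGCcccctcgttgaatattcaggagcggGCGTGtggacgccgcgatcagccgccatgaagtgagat
Ung: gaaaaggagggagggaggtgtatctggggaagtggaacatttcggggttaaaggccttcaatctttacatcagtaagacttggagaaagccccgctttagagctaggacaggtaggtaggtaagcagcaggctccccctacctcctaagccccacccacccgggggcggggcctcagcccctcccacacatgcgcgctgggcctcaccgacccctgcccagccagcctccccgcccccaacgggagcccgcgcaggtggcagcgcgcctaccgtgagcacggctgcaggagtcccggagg

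The motifs were the core of the hypoxia response element, which binds hypoxia-inducible factors and was searched as ACGTG or GCGTG, and an E2F-like site, known from genes of DNA replication and searched as the letters TTCCCGC, as TTCGCGC, as TTGCCGC and as TTGGCGC. The hypoxia response core was found at 2 places in the Atm window and 3 in the Ercc2 window, and its letters were not in the Rad52 and Ung windows. Among the 30 repair genes with a window, 20 held the core (66.7%), against 66.3% of the 11687 tested genes with a window and 46.7% of all genes in the RefSeq table. The share of repair genes with these 5 letters was thus close to that of tested genes in general. The E2F-like letters stood in 17 of the 30 (56.7%), against 19.0% of tested genes and 10.9% of all genes in the table. They were found once each in the Rad52, Atm and Ercc2 windows and not in the Ung window. In Ercc2, the match overlapped a hypoxia response core. A match is a description of letters and was not tested as a binding site.

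The total count per library ran between 22688096 and 31917157 in hypoxia and between 16619493 and 31416241 in control. The 37 genes together took 0.0914 ± 0.00252% of the counts in hypoxia and 0.0886 ± 0.00194% in control (SD, n = 5 and 6). As a check of the labels, Vegfa averaged 286 ± 16.2 CPM (counts per 1e+06 counts of the library) in hypoxia and 141 ± 29.3 CPM in control, Slc2a1 66.7 ± 3.67 CPM in hypoxia and 22.6 ± 5.04 CPM in control, and Pfkfb3 310 ± 2.75 CPM in hypoxia and 129 ± 24.4 CPM in control. For these 3 hypoxia-responsive genes every hypoxia library lay above every control library. The cultures held other cells besides neurons. The 11 neuron markers summed to 8122 to 8647 CPM in hypoxia and 7901 to 8610 CPM in control, led by Map2 and Camk2a, and the 7 astrocyte markers, led by Slc1a2 and Slc1a3, to 3044 to 3328 CPM in hypoxia and 3042 to 3333 CPM in control. In RNA from a mixed culture, fewer cells of a type and less RNA per cell cannot be told apart.

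Hypoxia was set against control with edgeR's quasi-likelihood test over all 16235 genes that passed a filter on low counts. Calls required a p below 0.05 after Benjamini-Hochberg adjustment over all of them. All 37 repair genes passed the filter. The 5 called make 13.5% of them, against 22.9% of all genes tested and 25.9% of the genes within the same range of mean CPM. The called share among repair genes was thus below the background, a difference given here as a description. The 3 that rose stand against a background of 10.1% of all genes called higher, and the 2 that fell against 12.8% called lower. The log2 fold change, hypoxia over control, was positive in 20 of the 37 and negative in 17, with a median of 0.02 and a median size of 0.09, against a median of -0.02 and a median size of 0.12 over all genes. An unadjusted p under 0.05 was found for 12 of the 37, against 34.8% of all genes. The count of 3 higher became 5 without control 1, with Msh6 and Trp53bp1 added, and the count of 2 lower became 4 without hypoxia 3, with Bard1 and Fanca added.

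**Figure D1:**
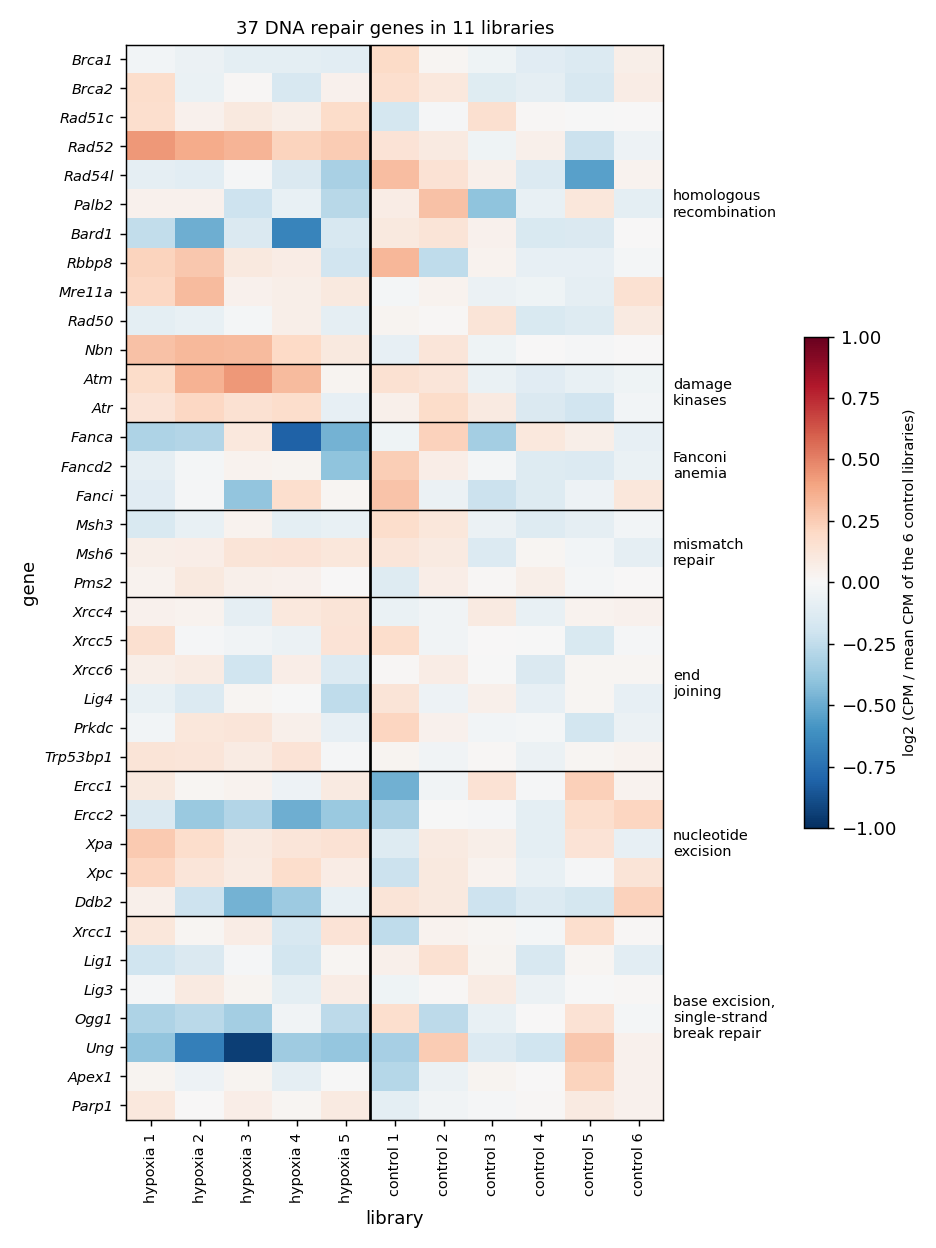
Heat map of the 37 DNA repair genes (rows, grouped by repair role) in the 5 hypoxia and 6 control libraries (columns), coloured by log2 of CPM over the mean of the control libraries. Most rows change little between the groups, while Rad52 is raised in every hypoxia library and Ung is lower in every hypoxia library.

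Homologous recombination was represented by 11 genes, of which Rad52 and Nbn rose, none fell and 9 were not called. The share called was 18.2%, against 22.9% of all genes called either way and 10.1% called higher, and it rests on few genes. Rad52 encodes a strand-annealing protein that is central to recombination in yeast and backs up other factors in mammals. Its gene (ENSMUSG00000030166) lies at chr6:119902698-119922828 on the plus strand. Rad52 had 21.2, 20.3, 19.9, 18.3 and 18.7 CPM in the hypoxia libraries, against a lowest of 13.5, a median of 15.8 and a highest of 17.3 CPM in the control libraries. Every hypoxia library lay above every control library, which was true of 6.72% of all genes tested. The means were 19.7 ± 1.18 CPM in hypoxia and 15.7 ± 1.35 CPM in control, a log2 fold change of 0.33 (SE 0.06), or 1.26-fold with a 95% interval of 1.14 to 1.38 (adjusted p = 0.00167).

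Nbn encodes Nbs1, the subunit of the Mre11-Rad50-Nbs1 complex that recruits Atm to broken ends. The gene (ENSMUSG00000028224) lies at chr4:15957925-15992589 on the plus strand. Nbn had 12.4, 12.7, 12.6, 11.6 and 10.8 CPM in the hypoxia libraries, against a lowest of 9.56, a median of 10.1 and a highest of 10.99 CPM in the control libraries. The groups overlapped at 1 point, since hypoxia 5 lay below control 2. The log2 fold change was 0.25 (SE 0.06), or 1.19-fold with a 95% interval of 1.08 to 1.30 (adjusted p = 0.00957).

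The other subunits of the complex were not called. Mre11a, the nuclease, averaged 14.8 ± 1.201 CPM in hypoxia and 13.4 ± 0.835 CPM in control (log2 fold change 0.15, adjusted p = 0.123), and Rad50, the ATPase that holds the ends together, averaged 19.9 ± 0.942 CPM in hypoxia and 20.5 ± 1.58 CPM in control (log2 fold change -0.04, adjusted p = 0.646). Whether Nbn differed from its partners in its change was not tested.

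The other recombination genes were not called. Brca1, which directs breaks towards recombination, averaged 8.09 ± 0.195 CPM in hypoxia and 8.53 ± 0.737 CPM in control, and Brca2, which loads the strand-exchange protein, averaged 9.35 ± 0.826 CPM in hypoxia and 9.33 ± 0.881 CPM in control. Their log2 fold changes were -0.07 and 0.01 (adjusted p = 0.528 and 0.951). Bard1, the partner of Brca1 in a ubiquitin ligase, had 2.59, 2.18, 2.78, 1.94 and 2.75 CPM in hypoxia, against 2.76 to 3.36 CPM in control with a median of 3.11. Bard1 lay just outside the threshold, with a log2 fold change of -0.32 (SE 0.11, adjusted p = 0.0553), and 1 hypoxia library lay above the lowest control library. It was called under 3 of 19 alternative settings, with adjusted p-values from 0.0405 to 0.150 over all of them. The remaining 4 were Rad51c, a strand-exchange paralog (log2 fold change 0.11), Rad54l, a DNA translocase (-0.12), Palb2, the link between Brca1 and Brca2 (-0.08), and Rbbp8, which encodes the end-resection factor CtIP (0.11). Their adjusted p-values lay between 0.427 and 0.726.

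**Figure D2:**
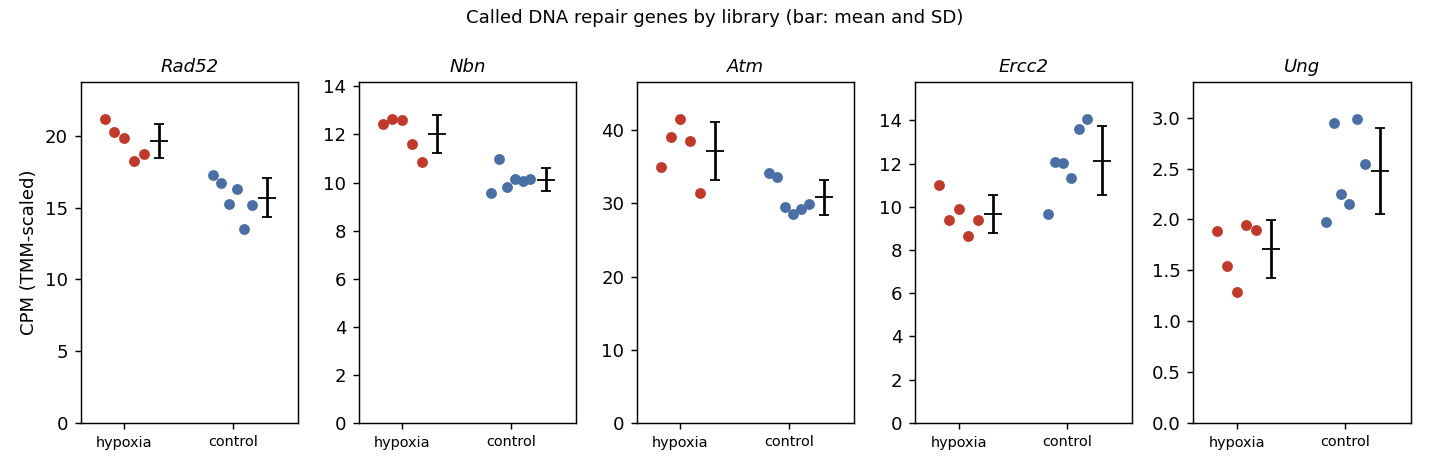
CPM in each library (points) for the 5 called repair genes, with hypoxia left of control and bars for the mean and SD. The groups are apart for Rad52 and Ung, and overlap for Nbn, Atm and Ercc2.

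Of the kinases that signal damage, Atm rose and Atr was not called. Atm responds to double-strand breaks and phosphorylates p53 and many other targets. Its gene (ENSMUSG00000034218) lies at chr9:53439149-53536740 on the minus strand. Atm had 34.96, 39.2, 41.6, 38.5 and 31.5 CPM in the hypoxia libraries, against a lowest of 28.6, a median of 29.7 and a highest of 34.2 CPM in the control libraries. Hypoxia 5 lay below controls 1 and 2, and the other hypoxia libraries lay above all controls. The log2 fold change was 0.27 (SE 0.07), or 1.21-fold with a 95% interval of 1.09 to 1.34 (adjusted p = 0.00954). Atr, which responds to single-stranded DNA at stalled replication forks, had 31.4, 33.0, 31.7, 32.2 and 26.9 CPM in hypoxia, against 25.0 to 32.4 CPM in control with a median of 28.8 (log2 fold change 0.12, adjusted p = 0.237). In both kinases hypoxia 5 was the lowest hypoxia library.

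The Fanconi anemia genes, which serve the repair of crosslinks between strands, had 3 negative log2 fold changes and no call, against 22.9% of all genes called. Fanca, of the core complex, had 2.24, 2.26, 2.98, 1.58 and 1.99 CPM in hypoxia, against 2.19 to 3.24 CPM in control with a median of 2.79 (log2 fold change -0.33, SE 0.15, adjusted p = 0.122). The exons of Fanca overlap those of Zfp276 over 10.5% of their bases. Zfp276 was called lower, with 10.8 ± 1.204 CPM in hypoxia and 14.8 ± 1.67 CPM in control (adjusted p = 0.000989), and its part in the Fanca value was not tested. Fancd2 and Fanci, which form the pair that is ubiquitinated at crosslinks, had log2 fold changes of -0.07 and -0.03 (adjusted p = 0.619 and 0.877). Fanci shares 16.0% of its exon bases with Polg. That gene was called lower, with 37.5 ± 1.33 CPM in hypoxia and 44.9 ± 2.20 CPM in control (adjusted p = 0.000355). The part of Polg in the Fanci value was not tested.

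Mismatch repair genes were not called. Msh3 and Msh6 encode alternative partners in the mismatch-recognition dimers, for loops and for single mismatches. Msh3 averaged 30.4 ± 1.42 CPM in hypoxia and 31.9 ± 2.69 CPM in control, and Msh6 averaged 27.4 ± 0.704 CPM in hypoxia and 25.6 ± 1.81 CPM in control (log2 fold changes -0.07 and 0.11, adjusted p = 0.456 and 0.150). Pms2, the endonuclease subunit, averaged 22.4 ± 0.525 CPM in hypoxia and 21.7 ± 1.06 CPM in control (log2 fold change 0.05, adjusted p = 0.535).

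End joining had no call among its 6 genes, against 22.9% called over all genes tested. Their log2 fold changes lay between -0.08 and 0.09. Trp53bp1, which encodes 53BP1 and shields broken ends from resection, had 286, 284, 277, 287 and 260.2 CPM in hypoxia, against 251 to 268 CPM in control with a median of 265. Hypoxia 5 lay within the control range and the other hypoxia libraries above it. Its log2 fold change of 0.09 (SE 0.03) lay just outside the threshold (adjusted p = 0.0656). Under 5 of 19 alternative settings Trp53bp1 was called, with adjusted p-values from 0.0125 to 0.146 over all of them. Xrcc5 and Xrcc6, which encode Ku80 and Ku70, the ring that binds broken ends, had log2 fold changes of 0.05 and -0.02 (adjusted p = 0.652 and 0.859). Prkdc, the kinase that Ku recruits, averaged 43.1 ± 2.64 CPM in hypoxia and 42.0 ± 3.85 CPM in control. Xrcc4 and Lig4, scaffold and ligase of the final step, had log2 fold changes of 0.05 and -0.08 (adjusted p = 0.633 and 0.328).

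**Figure D3:**
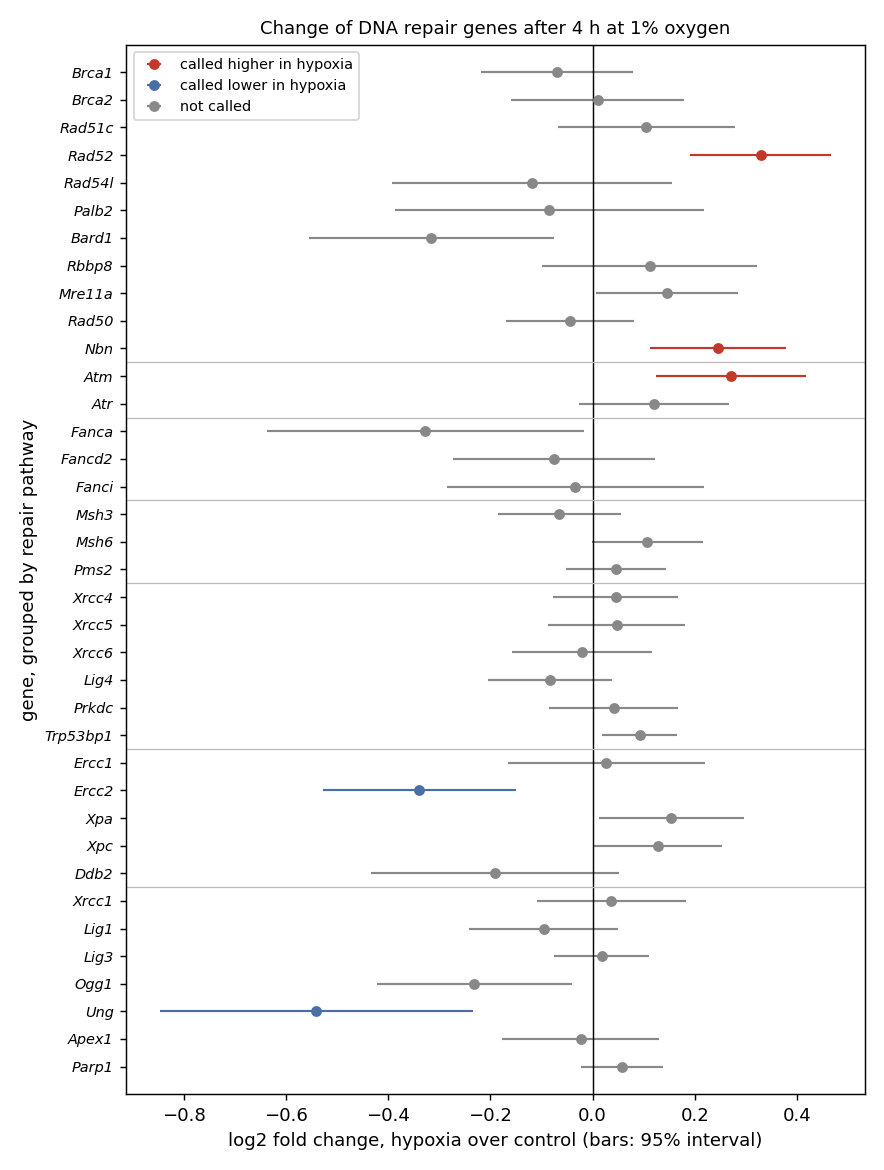
Log2 fold change of each repair gene, hypoxia over control, with its 95% interval, grouped by repair role. Rad52, Nbn and Atm lie to the right of 0 and Ercc2 and Ung to the left, each called, and the end joining genes lie between -0.08 and 0.09.

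In nucleotide excision repair, Ercc2 fell and the other 4 genes were not called, so that 20% were called, against 22.9% of all genes tested. Ercc2 encodes the helicase XPD, a subunit of the transcription factor TFIIH that opens DNA around a lesion. Its gene (ENSMUSG00000030400) lies at chr7:19382010-19395694 on the plus strand. Ercc2 had 11.01, 9.37, 9.91, 8.65 and 9.38 CPM in the hypoxia libraries, against a lowest of 9.68, a median of 12.1 and a highest of 14.1 CPM in the control libraries. Control 1, the shallowest library, lay within the hypoxia range and the other controls lay above it. The log2 fold change was -0.34 (SE 0.09), a level 1.26 times higher in control than in hypoxia, with a 95% interval of 1.11 to 1.44 (adjusted p = 0.0119). Ercc2 was called under 18 of 19 alternative settings, and not in edgeR's test with a block for the replicate number (adjusted p = 0.0547). Ercc2 shares 42.7% of its exon bases with other genes, and the library kit does not mark strand. The largest overlap was with the antisense gene Gm26852, which had 2 to 17 counts per library, and the next with Klc3, which had 4 to 18, against 162 to 403 for Ercc2. These low counts do not settle what reads in the shared bases belong to, and the part of these genes in the Ercc2 value was not tested.

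The other excision genes did not pass the adjusted threshold, though the 95% intervals of Xpa and Xpc lay just above no change, at 1.01 to 1.23-fold and 1.002 to 1.19-fold. Ercc1, a subunit of the nuclease that cuts on the 5′ side of the lesion, averaged 13.2 ± 0.544 CPM in hypoxia and 12.8 ± 2.02 CPM in control (adjusted p = 0.871). Xpa, which verifies the damage, averaged 10.8 ± 0.505 CPM in hypoxia and 9.65 ± 0.749 CPM in control (log2 fold change 0.15, adjusted p = 0.1105). Xpc, which recognises lesions across the genome, averaged 23.6 ± 1.00 CPM in hypoxia and 21.5 ± 1.83 CPM in control (log2 fold change 0.13, adjusted p = 0.134). Ddb2, which finds ultraviolet damage and is a p53 target in human cells, averaged 3.75 ± 0.554 CPM in hypoxia and 4.31 ± 0.556 CPM in control (log2 fold change -0.19, adjusted p = 0.258). Acp2 overlaps 23.8% of the exon bases of Ddb2. At 97.8 ± 1.53 CPM in hypoxia and 94.2 ± 1.27 CPM in control, Acp2 was far more abundant and not called (adjusted p = 0.227). Its part in the Ddb2 value was not tested.

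In base excision and single-strand break repair, Ung fell and 6 genes were not called. The share called was 14.3%, against 22.9% of all genes tested. Ung encodes the glycosylase that removes uracil from DNA. Its gene (ENSMUSG00000029591) lies at chr5:114130386-114139323 on the plus strand. Ung had 1.89, 1.54, 1.29, 1.94 and 1.90 CPM in the hypoxia libraries, against a lowest of 1.97, a median of 2.40 and a highest of 2.99 CPM in the control libraries. Every hypoxia library lay below every control library, which was true of 7.26% of all genes tested, though the highest hypoxia library and the lowest control library were close. The log2 fold change of -0.54 (SE 0.14) had the greatest size among the 37 genes, a level 1.45 times higher in control than in hypoxia, with a 95% interval of 1.18 to 1.80 (adjusted p = 0.0129). Ung rested on 32 to 83 counts per library.

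Ogg1, the glycosylase for oxidised guanine, had 4.78, 4.89, 4.67, 5.78 and 4.93 CPM in hypoxia, against 4.94 to 6.64 CPM in control with a median of 5.88. All hypoxia libraries but hypoxia 4 lay below the controls, and the log2 fold change of -0.23 (SE 0.09) did not pass (adjusted p = 0.0775). Apex1, the nuclease that cuts at the site left by a glycosylase, averaged 12.4 ± 0.464 CPM in hypoxia and 12.6 ± 1.40 CPM in control (adjusted p = 0.859). That value is uncertain, because 61.7% of its exon bases lie in Pip4p1, which was called higher at 86.2 ± 2.88 CPM in hypoxia and 78.0 ± 2.98 CPM in control (adjusted p = 0.0111). Parp1, which senses nicked DNA, averaged 115 ± 3.43 CPM in hypoxia and 110.2 ± 4.82 CPM in control (log2 fold change 0.06, adjusted p = 0.3003). Xrcc1, the scaffold of nick repair, and the ligases Lig1 and Lig3 had log2 fold changes of 0.04, -0.10 and 0.02 (adjusted p = 0.754, 0.355 and 0.816).

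How small a change could have been seen depended on the level. The median SE of the log2 fold change was 0.12 for the 8 genes under 5 CPM, 0.07 for the 17 at 5 to 20 CPM and 0.06 for the 12 above 20 CPM. Of the 32 genes not called, 25 had a 95% interval that stayed within a 1.25-fold change either way and 31 one that stayed within 1.5-fold. The exception was Fanca, whose interval reached a level 1.56 times higher in control than in hypoxia. A p that missed the threshold does not show that a gene stayed the same. The coefficient of variation between libraries had a median over the 37 genes of 7.11% in hypoxia, with a highest of 23.2% in Fanca, and of 8.53% in control, with a highest of 18.8% in Rad54l.

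Levels between genes were compared per length, as RPKM, the CPM divided by the exon length in kilobases, with lengths merged over all transcripts of the GENCODE M21 annotation. Such lengths understate genes with long minor transcripts. The median over the 37 genes was 2.82 RPKM in hypoxia and 2.91 RPKM in control, against 3.79 RPKM in hypoxia and 3.90 RPKM in control over all genes tested. Parp1 stood first at 21.7 ± 0.648 RPKM in hypoxia and 20.8 ± 0.911 RPKM in control, followed by Trp53bp1 at 19.7 RPKM in hypoxia and 18.5 RPKM in control. Far lower were Palb2 at 0.196 RPKM in hypoxia and 0.209 RPKM in control, and Fanca at 0.252 RPKM in hypoxia and 0.316 RPKM in control. By role, the median was 4.07 RPKM in hypoxia and 4.24 RPKM in control for end joining, and 4.23 RPKM in hypoxia and 3.91 RPKM in control for nucleotide excision repair. The median for homologous recombination was 0.917 RPKM in hypoxia and 0.848 RPKM in control, and for the Fanconi genes 0.468 RPKM in hypoxia and 0.485 RPKM in control. These 2 roles had the lowest medians of the 7, in hypoxia and in control. Within recombination the levels ran from 0.196 RPKM in Palb2 to 4.75 RPKM in Nbn in hypoxia, and from 0.209 to 3.99 RPKM in the same genes in control, so that Nbn, Rad50 and Rad52 lay above the median of the 37 in hypoxia.

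**Figure D4:**
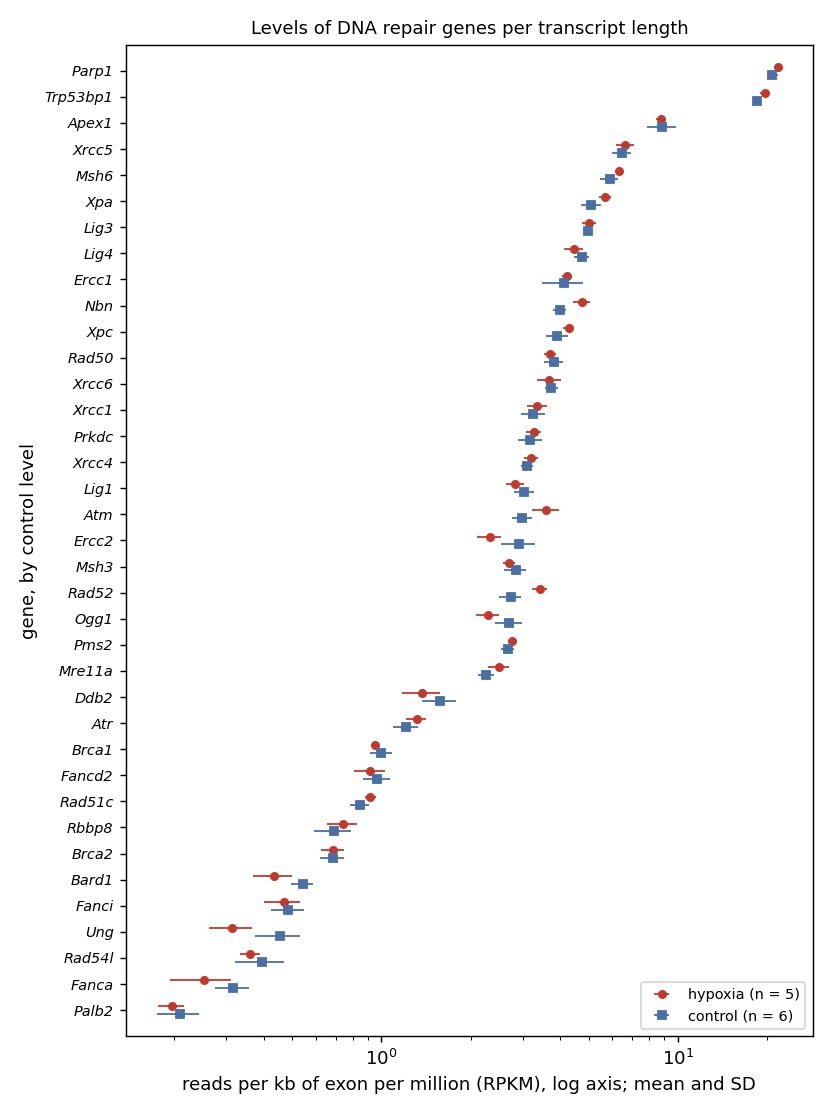
Level of each repair gene per transcript length (RPKM, log axis) as the mean and SD over the hypoxia (n = 5) and control (n = 6) libraries, ordered by the control level. Parp1 and Trp53bp1 lie near 20.8 and 18.5 RPKM in control, and Palb2 and Fanca lie below 0.5.

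Genes of recombination and of the Fanconi route are also expressed in dividing cells, and markers of such cells were present. The 20 dividing-cell markers summed to 183 to 224 CPM in hypoxia and 204 to 254 CPM in control (exact permutation test, 2-sided, p = 0.0844, adjusted over 7 marker lists 0.197). Of these 20, 4 were called lower (Ccna2, Birc5, Mcm7 and Ccne2) and none was called higher. Over all genes tested, 12.8% were called lower and 22.9% either way. The most abundant, Top2a and Mki67, averaged 37.8 ± 4.11 and 30.0 ± 2.34 CPM in hypoxia, against 40.5 ± 4.90 and 34.6 ± 5.17 CPM in control. The 7 oligodendrocyte lineage markers, led by Olig1 and Pdgfra, summed to 94.8 to 123 CPM in hypoxia and 113 to 157 CPM in control (exact permutation p = 0.0260, adjusted 0.182). Among these 7, 3 were called lower (Olig1, Olig2 and Mog), against the same 12.8% of all genes. Markers of microglia, led by Aif1 and Csf1r, summed to 15.2 to 17.8 CPM in hypoxia and 15.004 to 17.5 CPM in control. Of the 5 tested, 0 were called, and Cx3cr1, P2ry12 and Itgam had at most 17, 11 and 11 counts in any library. Markers of endothelial and mural cells summed to 42.2 to 51.8 CPM in hypoxia and 40.5 to 46.1 CPM in control. Of the 4 tested, Pdgfrb was called higher. The sum was mostly Kdr and Pdgfrb, at 22.2 and 17.7 CPM over all libraries. Pecam1, Tek and Cldn5 had at most 25, 6 and 4 counts in any library, so endothelial cells were not shown. The 5 fibroblast markers, led by Col3a1 and Col1a2, summed to 154 to 313 CPM in hypoxia and 166 to 231 CPM in control, with 0 called. The 313 CPM was hypoxia 5 alone, the other hypoxia libraries lying between 154 and 199.6 CPM. Hypoxia 5 was also the lowest hypoxia library for Nbn, Atm, Atr and Trp53bp1. The same was true of Brca1, Rad54l, Palb2, Rbbp8, Fancd2, Pms2, Lig4, Prkdc and Xpc, and of no other gene in the repair group. These genes came from every repair role but base excision and single-strand break repair. Without hypoxia 5 the log2 fold change was 0.29 for Nbn and 0.33 for Atm (adjusted p = 0.00348 and 0.00119), and Trp53bp1 was called (0.12, adjusted p = 0.0142). Bard1 was then called lower (-0.36, adjusted p = 0.0405), and Ercc2 stayed lower with a larger adjusted p (-0.33, adjusted p = 0.0241). In the neuron and astrocyte lists, Neurod6 was called higher and Aqp4 lower. No marker was at 0 in every library, and the part of these cells in the values of Ung, Bard1, Fanca and the other repair genes was not tested.

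Several repair genes share a start region with a neighbour that is read the other way. A protein-coding gene on the opposite strand began within 1000 bases of 15 of the 37 (40.5%), against 15.1% of 14031 protein-coding genes tested. Of the 14 neighbours tested, Dctn5, beside Palb2, was called higher, and Nbr1, Ankrd49 and Tmem167, beside Brca1, Mre11a and Xrcc4, were called lower, against 22.9% of all genes called. These 4 were named after their values were seen, and the repair gene beside each was itself not called. Atm was the only called repair gene among the 14 pairs. Npat, whose start lies 307 bases from that of Atm, averaged 26.5 ± 1.34 CPM in hypoxia and 27.6 ± 1.54 CPM in control (log2 fold change -0.06, adjusted p = 0.465), while Atm rose. The start of the noncoding RNA 4930540M05Rik lies 45 bases from that of Rad52, and it did not pass the filter on low counts. Exon bases were shared with another gene in 23 of the 37, and over 20% of them in Apex1, Ercc2, Lig3 and Ddb2. Rad52, Nbn, Atm and Ung shared 0 exon bases.

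The authors' deposited table of their own comparison lists 6 of the 37 genes, against 23.3% of the genes tested here. In the authors' deposited table Rad52, Nbn and Atm are higher in hypoxia, with log2 fold changes of 0.33, 0.26 and 0.26, and Ercc2 and Ung are lower, with -0.30 and -0.51. The authors' deposited table also lists Trp53bp1 as higher, with a log2 fold change of 0.10 and an adjusted p of 0.0185. It rests on the same libraries and is not independent of the values above.

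A wider list of 124 other repair genes was examined, of which 122 passed the filter. Of these, 5 rose and 11 fell, 13.1% in all, against the 22.9% of all genes. Their median log2 fold change was -0.02, with 47 positive and 75 negative, against a median of -0.02 over all genes tested. The count of 5 higher became 10 without control 1, and 3 without any 1 of controls 3, 4, 5 and 6 and hypoxia 2 and 4. The count of 11 lower became 7 without control 3, hypoxia 1 or hypoxia 4, and 6 without hypoxia 2.

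Nabp1 had the greatest change on either list. It encodes a single-stranded DNA-binding protein of the SOSS complex, which acts at double-strand breaks in human cells. Nabp1 had 27.4, 27.9, 31.95, 34.5 and 28.7 CPM in hypoxia, against a lowest of 62.6, a median of 69.5 and a highest of 82.2 CPM in control. The groups were far apart, with a log2 fold change of -1.23 (SE 0.07), a level 2.34 times higher in control than in hypoxia with a 95% interval of 2.11 to 2.60 (adjusted p = 8.12e-09).

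Translesion synthesis, in which low-fidelity polymerases copy past a lesion, had 3 genes that rose and 2 that fell among 11 tested. The share called was 45.5%, against 22.9% of all genes tested, and it rests on few genes. Rev1, the scaffold of these polymerases, had 37.5, 36.7, 38.6, 37.8 and 33.0 CPM in hypoxia, against a lowest of 28.2, a median of 29.6 and a highest of 30.7 CPM in control (log2 fold change 0.32, SE 0.05, adjusted p = 0.000134). Polh, the polymerase that bypasses ultraviolet damage, had 12.5, 13.3, 12.6, 12.4 and 12.4 CPM in hypoxia, against a lowest of 7.95, a median of 9.26 and a highest of 11.1 CPM in control (log2 fold change 0.41, SE 0.07, adjusted p = 0.000739). In both genes every hypoxia library lay above every control library, which was true of 6.72% of all genes tested. Rev3l, the catalytic subunit of polymerase zeta, averaged 329 ± 22.9 CPM in hypoxia and 296 ± 20.9 CPM in control (log2 fold change 0.15, adjusted p = 0.0481). Rev3l missed the threshold under 12 of 19 alternatives, with an adjusted p of up to 0.125. The genes that fell were Ube2b, a ubiquitin-conjugating enzyme of damage tolerance, at 138 ± 4.24 CPM in hypoxia and 155 ± 4.44 CPM in control (adjusted p = 0.00259), and Hltf.

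Outside translesion synthesis, Gtf2h1 and Pms1 rose. Gtf2h1, a TFIIH subunit like Ercc2, averaged 56.4 ± 2.34 CPM in hypoxia and 48.5 ± 2.03 CPM in control (log2 fold change 0.22, adjusted p = 0.00105). It moved in the opposite direction to Ercc2. The TFIIH genes Ercc3, Gtf2h2, Gtf2h3, Gtf2h4 and Gtf2h5 were not called, with log2 fold changes between -0.07 and 0.08. Pms1, a relative of Pms2, averaged 5.32 ± 0.614 CPM in hypoxia and 4.34 ± 0.459 CPM in control (adjusted p = 0.0379), and was called under 10 of 19 alternatives. Mdc1, the adaptor that binds phosphorylated histone H2AX at breaks, fell to 24.9 ± 2.12 CPM in hypoxia, against 30.7 ± 2.09 CPM in control (log2 fold change -0.30, adjusted p = 0.00198). Mpg, a glycosylase for alkylated bases, fell to 6.39 ± 0.388 CPM in hypoxia, against 8.02 ± 0.891 CPM in control (log2 fold change -0.34, adjusted p = 0.00779). Aptx, which clears blocked ends at nicks, fell to 33.3 ± 1.79 CPM in hypoxia, against 37.6 ± 1.42 CPM in control (log2 fold change -0.17, adjusted p = 0.0109). The other genes that fell were Rad51d, Brcc3, H2afx, Fance and Ercc8, with Hltf above. End joining had no call among the 8 tested, against 22.9% called over all genes, and so few genes say little about the route.

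**Figure D5:**
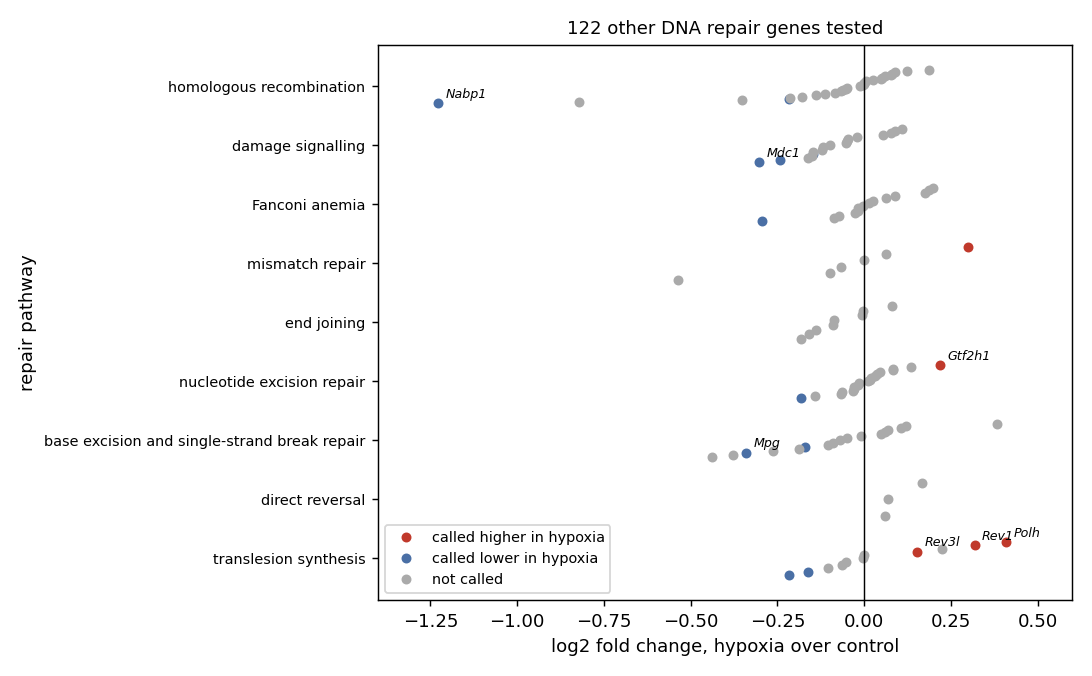
Log2 fold change, hypoxia over control, of the 122 other repair genes tested (points), in rows by repair route and coloured by call. Nabp1 stands apart at -1.23. The translesion synthesis row holds 3 genes called higher and 2 called lower among 11 tested, with Rev3l near the threshold.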

How the data were processed

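RNA was measured in 5 hypoxia and 6 control libraries of polyadenylated RNA, made with a kit that does not mark strand and read as single ends, per the labels' protocols. The authors deposited raw read counts per Ensembl gene ID. The submitters' processing notes name FastQC 0.11.5, STAR 2.5.2b, featureCounts, Subread 1.5.1, DESeq2 and build mm10. Which annotation release and strand setting were used, and how reads with several matches were treated, is not given in the sources used here. The authors also deposited log2 fold changes and adjusted p-values for the genes they list, with a normalized signal per library, which was not used here.

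Groups came from the sample titles. Counts were filtered with filterByExpr, scaled by TMM and compared with edgeR 4.0.16 (R 4.3.3) by the quasi-likelihood F test, 2-sided, with no covariate, and adjusted by Benjamini-Hochberg over 16235 genes. The SE is the size of the log2 fold change over the root of F. CPM uses TMM-scaled library sizes. Symbols matched 48349 of 48709 IDs. Exons, lengths and coordinates are those of GENCODE M21 (GRCm38), and promoters those of RefSeq. Near-identical copies were searched at 95% identity over 200 bases, and the only matches were overlapping neighbours. No 2 libraries agreed within sampling noise, by a chi-square per gene that grows as 2 libraries differ. The controls were not equally alike: it was 2.31 to 4.98 among controls 3 to 6, and 23.0 to 26.3 between control 2 and these. Between control 1 and the other controls it was 8.51 to 13.98. The depth of each library limits the precision of genes with few counts.

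The genes named are all 37, the 5 other repair genes higher and the 5 lower with the smallest p, head-to-head neighbours of called genes within 1000 bases, the 2 most abundant markers of each cell type and 3 genes as a check of the labels. Others are named where a count was small, after their values were seen. The members and lists were chosen with earlier results of these data known. Alternatives were other scaling, filters, spread estimates, DESeq2 1.42.0, a replicate block, a correction for GC content and leaving out each library.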

Additional observations from a re-analysis of the deposited data

Results flagged for a closer look

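Within a group of libraries, 1 library stood far from the others for 7 of 130 combinations of gene and group, 3 of them in the 74 of the 37 repair genes. Chance gives about 1 in 20 such cases. Atr in hypoxia 5 was at 26.9 CPM, below the other hypoxia libraries at 31.4 to 33.0 CPM. Ogg1 in hypoxia 4 was at 5.78 CPM, above the others at 4.67 to 4.93 CPM. Xrcc6 in control 4 was at 15.2 CPM, below the other controls at 16.7 to 17.7 CPM. Among the other repair genes, Polh in hypoxia 2 was at 13.3 CPM, above 12.4 to 12.6 CPM in the others, and Mdc1 in hypoxia 3 was at 28.5 CPM, above 23.2 to 24.6 CPM. Npat in control 1 was at 30.7 CPM, above 26.2 to 27.5 CPM in the other controls. Kdr, of the endothelial and mural list, was at 25.0 CPM in hypoxia 5, above 18.7 to 20.5 CPM.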

How the results depend on the processing

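Over 19 alternatives, 689 of 703 values of the 37 genes kept their direction and their side of the threshold, 1 lost its call, 13 gained one and 0 called values turned direction. Among genes not called, Brca2, Fancd2, Fanci, Xrcc6, Ercc1 and Apex1 changed sign under some alternative. Rad52, Nbn, Atm and Ung were called in all 19, with adjusted p of up to 0.0068, 0.0334, 0.0331 and 0.0408, and Ercc2 in 18. With the replicate block Ercc2 had an adjusted p of 0.0547, so 1 of the 37 was lower, and 3 other repair genes were higher. Whether the replicate numbers pair the libraries is not settled. Same-numbered pairs correlated at -0.10 to 0.31, and 2 of 5, numbers 2 and 5, matched their own number best. DESeq2 called 8 other repair genes higher. A correction for GC content, chosen after seeing the data, gave 5 of the 37 higher, with Atr (adjusted p = 0.0269) and Trp53bp1 (0.0226) added, 10 other repair genes higher, and 2696 of all genes higher, 56.5% of calls against 44.2% without it. The cause was not tested. Leaving out 1 library gave 3 to 5 of the 37 higher and 2 to 4 lower, 3 to 10 other repair genes higher and 6 to 12 lower, 1385 to 2081 of all genes higher and 1500 to 2042 lower, and a median log2 fold change of the 37 between 0.0062 and 0.037. Depth limits the genes under 5 CPM, such as Ung, Palb2 and Fanca.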
